A study of Sus scrofa with 12 samples.

Results

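The neurotrophins and the ligand GDNF, with the receptors that bind them, were examined in pig striatum after deep hypothermic circulatory arrest (DHCA). The 8 genes were chosen by name, as ligands and receptors of this family, and the rule sets no condition on their values. They are the ligand genes BDNF, NTF3 and GDNF and the receptor genes NTRK2, NTRK3, NGFR, GFRA1 and RET. All 8 names were found among the 25880 genes of the count table. Of these, 6 had enough reads to enter the test across genes, and BDNF and NTF3 did not.

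RNA labelled as coming from the striatum region of newborn piglets was sequenced in bulk. The Sham group (n = 6 piglets) was kept under anaesthesia with 4% isoflurane. The DHCA group (n = 6 piglets) received the same anaesthetic, a sternotomy and cardiopulmonary bypass, cooling to 18 °C, 30 min of circulatory arrest, rewarming to 37 °C on bypass and 6 h of recovery. The comparison asks how the striatum differed at that time after the whole procedure, since surgery, bypass, cooling and arrest were applied together and cannot be told apart. No time of collection is given for Sham in the sources used here.

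Neurotrophins are secreted growth factors that keep neurons alive and shape their synapses. BDNF and NTF4 act through the tyrosine kinase TrkB (NTRK2) and NTF3 (neurotrophin 3) mainly through TrkC (NTRK3), while the p75 receptor (NGFR) binds all of them and their uncleaved precursors. GDNF, a survival factor of dopamine neurons, binds its membrane-anchored co-receptor GFRA1, and the pair activates the tyrosine kinase RET. In the adult mammalian striatum most BDNF protein is made by cortical neurons and carried there along their axons. The adult striatum holds much TrkB and little BDNF messenger RNA.

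Libraries held between 1377809 (Sham 5) and 12933536 (Sham 6) counts. Sham 1 and Sham 5 were the shallowest, with 3 counts standing for 1.16 and 2.00 CPM (counts scaled to the library total) there and for 0.220 to 0.618 CPM in the other 10 libraries. Sham 4 went against its tissue label. Its spiny projection neuron markers summed to 568 CPM, against 4202 to 9528 CPM in the other 11 libraries, and it held the lowest level of 21 of the 23 markers found. Its cortical projection neuron markers summed to 2320 CPM, against 264.8 to 431 CPM in the others. Of these 14 markers, Sham 4 held the highest level of 10 and the lowest of 1, LAMP5. CUX2, RORB and MEF2C were highest in other libraries. The largest single part of the sum was NPTX1, at 857 CPM. SLC17A7, the vesicular glutamate transporter of cortical neurons, stood at 838 CPM in Sham 4 and between 2.15 and 7.99 CPM elsewhere. NEUROD6, a transcription factor gene of the same neurons, stood at 122 CPM there and at 0 counts in 4 other libraries. PPP1R1B, which encodes the spiny neuron phosphoprotein DARPP-32, was at 13.1 CPM in Sham 4 and at 771 to 2146 CPM elsewhere, and DRD1, a dopamine receptor gene, at 1.14 and at 203.6 to 369 CPM. CHAT, which encodes the acetylcholine-making enzyme of striatal interneurons, was at 0.853 CPM in Sham 4 and at 12.8 to 29.5 CPM elsewhere. The whole list of cholinergic and other interneuron markers did not set Sham 4 apart. It summed to 652.8 CPM there, within the 555.1 to 982.6 CPM of the other 11 libraries. Of its 19 genes, Sham 4 held the lowest level of 7 and the highest of 3. The comparison of each member is therefore also given without Sham 4.

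**Figure D1:**
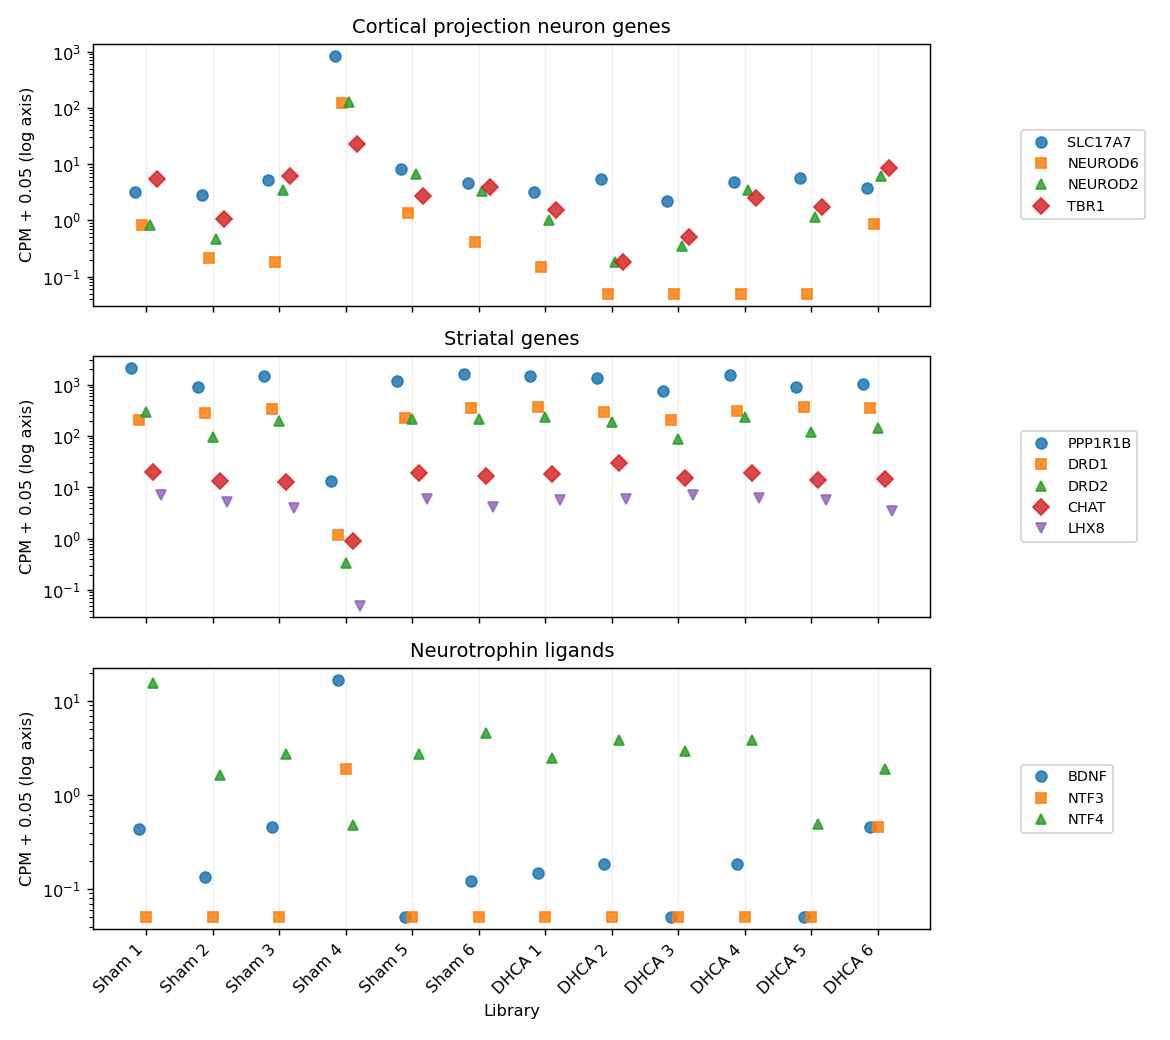
Each column is 1 library and each point the level of 1 gene in CPM plus 0.05, on a log axis, for cortical neuron genes (top), striatal genes (middle) and neurotrophin ligand genes (bottom); points of a column are set side by side. Sham 4 holds the highest SLC17A7, BDNF and NTF3 and the lowest PPP1R1B, DRD1, DRD2, CHAT and LHX8 of the 12 libraries.

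Ranked by level per exon length, in TPM (transcripts scaled to gene length and library total), the receptor genes NTRK2, NTRK3, GFRA1 and RET led and the neurotrophins came last. Median TPM over 12 libraries was 137.9 for NTRK2, 73.6 for NTRK3, 27.7 for GFRA1, 13.1 for RET, 1.75 for GDNF, 1.19 for NGFR, 0.105 for BDNF and 0 for NTF3. All 8 genes held the same rank in the Sham libraries alone, in the DHCA libraries alone, and once Sham 1, Sham 4 and Sham 5 had been removed. NTRK2 lay above NTRK3 in 12 of 12 libraries, although their ranges of 97.1 to 156.4 and 49.4 to 108.1 TPM touch. NTRK3 lay above GFRA1 in 11 of 12 and GFRA1 above RET in 12 of 12. RET (4.87 to 17.4 TPM) and GDNF (1.05 to 3.43 TPM) are the neighbours whose ranges did not overlap. The order of GDNF and NGFR held in 8 of 12 libraries, so these neighbours did not differ beyond their spread. TPM counts all transcripts of a gene together, so full-length and truncated TrkB, which lacks the kinase, are summed.

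**Figure D2:**
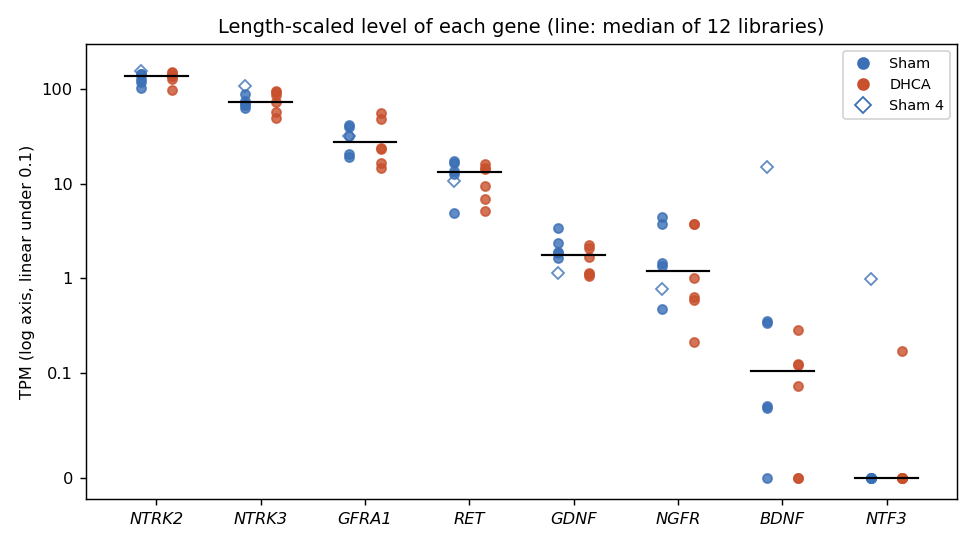
Points give the TPM of each gene in each Sham and DHCA library, on a log axis that is linear under 0.1, with the median of 12 libraries as a line. The 4 leading receptor genes span medians of 13.1 to 137.9 TPM, and BDNF reaches 15.0 TPM in Sham 4 alone.

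BDNF was close to the detection limit in every library but one. The gene (ENSSSCG00000013333, Sscrofa11.1 chromosome 2, 32623268 to 32679129) had 118 counts in Sham 4, which is 16.8 CPM. The other Sham libraries held 1, 1, 3, 0 and 1 counts (Sham 1, 2, 3, 5 and 6), and the DHCA libraries held 1, 1, 0, 1, 0 and 2 counts (DHCA 1 to 6). Apart from Sham 4 the groups thus overlapped, and no library passed 0.412 CPM. Pooled over libraries, BDNF stood at 0.161 CPM in Sham without Sham 4 (6 counts, exact Poisson 95% interval 0.0592 to 0.351) and at 0.110 CPM in DHCA (5 counts, 0.0358 to 0.258). These intervals cover counting error only.

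The group difference of BDNF rested on Sham 4. Mean BDNF was 2.95 ± 6.77 CPM in Sham and 0.130 ± 0.151 CPM in DHCA (SD, n = 6 each), a difference of -2.82 CPM (exact permutation test, 2-sided, p = 0.333). Without Sham 4 the Sham mean was 0.190 ± 0.191 CPM (n = 5), and the difference of -0.060 CPM had an exact permutation p of 0.617. In an edgeR fit with no filter on low counts, with Sham 4 included, BDNF had a log2 fold change of -4.59 with an unadjusted p of 0.00405 and an adjusted p of 0.339. The DESeq2 Wald test gave -4.62 (SE 1.40) and no p. The authors' deposited table lists BDNF with a log2 fold change of -2.55 (standard error 1.19, p = 0.0322, adjusted p = 0.414). That table gives values to 86 genes without a count in the 12 libraries, so other counts also entered it. Its positive values were taken to mean higher in DHCA: across 14004 genes they had a correlation of 0.97 with the fold changes fitted here, while the sign of its test statistic is the opposite in all 21223 rows. For the receptors the authors' deposited table lists 0.10 for NTRK2, 0.032 for NTRK3, -0.50 for NGFR, -0.0033 for GFRA1 and -0.087 for RET, and for GDNF -0.25.

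BDNF was also set against SLC17A7, a ratio chosen after the values were seen. Of BDNF and SLC17A7 counts together, BDNF made up 19.6 per 1000 in Sham 4 (118 of 6015, exact binomial 95% interval 16.3 to 23.5). In the other 11 libraries together it made up 30.9 per 1000 (11 of 356, 15.5 to 54.6). The intervals overlap, and the part of cortical tissue in the BDNF counts of the other libraries was not tested.

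NTF3 (ENSSSCG00000033544, chromosome 5, 65049262 to 65121808) was found in 2 libraries only. It had 13 counts in Sham 4 (1.85 CPM) and 2 counts in DHCA 6 (0.412 CPM), and 0 in the other 10. In Sham without Sham 4, a count of 0 allows up to 0.0807 CPM over the 5 libraries pooled. DHCA 6 also held the highest TBR1, a cortical transcription factor gene, outside Sham 4 (8.45 CPM, against 0.136 to 6.07 CPM in the other 10). The cortical marker list as a whole did not set DHCA 6 apart. Its sum there was 381.5 CPM, within the 264.8 to 431.3 CPM found outside Sham 4, and SLC17A7 stood at 3.71 CPM. A cortical source of the 2 NTF3 counts was not tested. The mean NTF3 difference was -0.24 CPM with Sham 4 and 0.069 CPM without it, with an exact permutation p of 1 in both cases.

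GDNF (ENSSSCG00000038727, chromosome 16, 22936603 to 22965819) was low but present in all 12 libraries. Sham ranged from 1.71 CPM in Sham 4 to 4.66 CPM in Sham 5, with a median of 2.73, and DHCA from 1.79 CPM in DHCA 5 to 3.36 CPM in DHCA 4, with a median of 2.25. The groups overlapped, and the lowest of all 12 values was that of Sham 4. The log2 fold change was -0.24 (SE 0.28), a ratio of DHCA to Sham of 0.849 with a 95% interval of 0.563 to 1.28 (edgeR adjusted p = 0.838). Without Sham 4 it was -0.37, with an edgeR adjusted p of 0.782. The sums of 124 counts in Sham and 114 in DHCA limit what could be seen for this gene.

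No ligand or receptor among the members passed the test across genes. Of the 6 members tested, 0 were called by the edgeR quasi-likelihood test at an adjusted p under 0.05, the call made for 26 of all 14004 genes tested (0.186%). At an unadjusted p under 0.05 the count was 0 of 6, against 7.9% of all genes, and the DESeq2 Wald test also called 0 (1.1% of the genes it adjusted). In 0 of the 6 did the DHCA libraries all lie on one side of Sham, a pattern found in 0.993% of all genes. Each of the 6 intervals of the fold change included 0. The median log2 fold change of these 6 was 0.046, beside -0.0030 over all genes, and all 6 fold changes lay under 0.25 in size, as did 58.1% of all genes. The errors were wider than these values, though 5 of the 6, all but NGFR, had intervals within a 2-fold change either way.

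**Figure D3:**
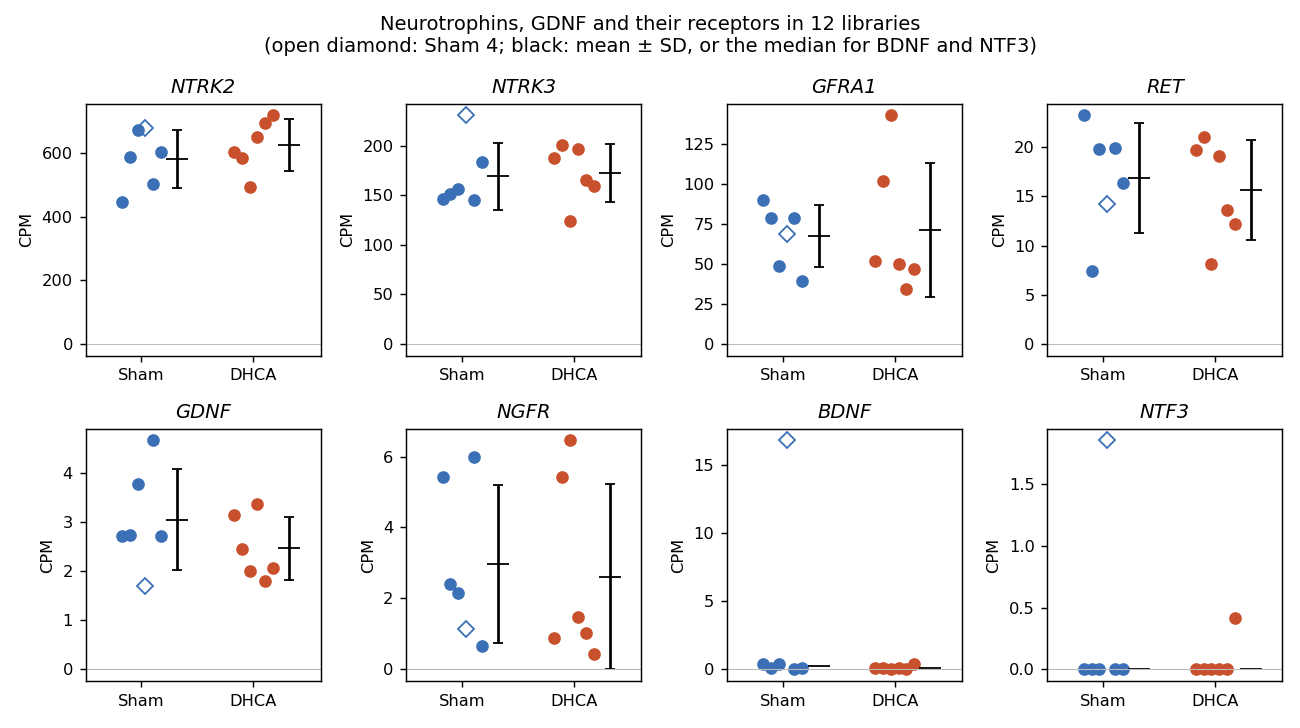
Each panel gives the CPM of 1 gene in the 6 Sham and 6 DHCA libraries, with the group mean and SD, or the median for BDNF and NTF3. Sham and DHCA overlap in all 8 panels; Sham 4 is the only library with BDNF above 0.412 CPM.

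NTRK2, the TrkB gene (ENSSSCG00000010959, chromosome 10, 30032176 to 30429882), ranged in Sham from 447 CPM in Sham 1 to 679 CPM in Sham 4, with a median of 597. In DHCA it ranged from 494 CPM in DHCA 3 to 720 CPM in DHCA 6, with a median of 628. Both groups had low and high libraries. The ratio of DHCA to Sham was 1.07 with a 95% interval of 0.851 to 1.35 (log2 fold change 0.10, SE 0.16, edgeR adjusted p = 0.874). Without Sham 4 the log2 fold change was 0.14. With the shallow Sham 1 and Sham 5 left out together it was -0.025, so its sign was not fixed.

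NTRK3, the TrkC gene (ENSSSCG00000005106, chromosome 1, 191535889 to 191926804), ranged from 145 to 231 CPM in Sham (median 154) and from 124 to 201 CPM in DHCA (median 177). Sham 4 was the highest of all libraries and DHCA 3 the lowest. The ratio was 1.02, with an interval of 0.793 to 1.31 (log2 fold change 0.028, SE 0.17, edgeR adjusted p = 0.977), and without Sham 4 the log2 fold change was 0.13. It was -0.066 without Sham 1 and Sham 5. NTRK2 and NTRK3 were the most evenly expressed of the 8 genes, with a coefficient of variation over 12 libraries of 14.3% and 17.5%, against 83.5% for NGFR and 45.2% for GFRA1.

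NGFR, the p75 gene (ENSSSCG00000017548, chromosome 12, 25699417 to 25720445), varied 15.7-fold between the lowest and highest library. In Sham it stood at 5.43, 2.41, 2.16, 1.14, 5.99 and 0.659 CPM (Sham 1 to 6). In DHCA it stood at 0.882, 5.44, 6.45, 1.48, 1.01 and 0.412 CPM (DHCA 1 to 6). Each group held a pair of libraries above 5 CPM, and the others lay between 0.412 and 2.41 CPM. The ratio of 1.05 had an interval of 0.384 to 2.85 (log2 fold change 0.064, SE 0.67, edgeR adjusted p = 0.989), which leaves a change of more than 2-fold in either direction inside it. Without Sham 4 the log2 fold change was -0.11, and without DHCA 3 it was -0.43, so it had no fixed sign. NGFR had 2 to 42 counts per library.

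GFRA1, the GDNF co-receptor gene (ENSSSCG00000010655, chromosome 14, 126277875 to 126499830), stood at 89.6, 78.6, 48.7, 68.7, 78.6 and 39.2 CPM in Sham 1 to 6. In DHCA 1 to 6 it stood at 51.6, 101.4, 142.7, 50.1, 34.1 and 46.8 CPM. The highest and the lowest of the 12 values were both in DHCA. The log2 fold change was 0.087 (SE 0.34, ratio 1.06, interval 0.644 to 1.75, edgeR adjusted p = 0.957). It was 0.087 without Sham 4 and -0.25 without DHCA 3, the library with the highest value.

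RET, the kinase of the GDNF receptor complex (ENSSSCG00000010199, chromosome 14, 61331108 to 61359479), ranged from 7.41 CPM in Sham 2 to 23.3 CPM in Sham 1, with a Sham median of 18.1. In DHCA it ranged from 8.14 CPM in DHCA 3 to 21.1 CPM in DHCA 2, with a median of 16.4. The groups covered nearly the same range. The log2 fold change was -0.077 (SE 0.29, ratio 0.948, interval 0.620 to 1.45, edgeR adjusted p = 0.955) and -0.13 without Sham 4. With Sham 1 and Sham 5 left out together it was 0.12.

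**Figure D4:**
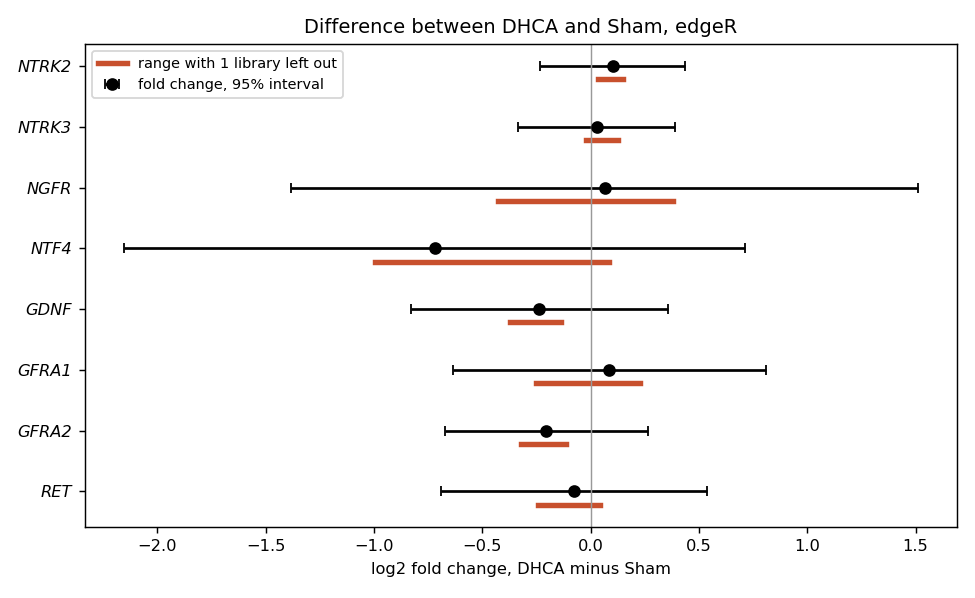
Points give the log2 fold change of DHCA minus Sham with its 95% interval for the 6 tested members and for NTF4 and GFRA2, and the coloured bars give the range when 1 library at a time is left out. All 8 intervals include 0, and the bars of NTRK3, NGFR, NTF4, GFRA1 and RET cross it.

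GFRA1 and NGFR varied with the level of myelin genes. Oligodendrocytes are the cells that wrap axons in myelin, and a sample that holds more white matter holds more of their RNA. The 10 oligodendrocyte markers found, the myelin sheath gene MBP among them, were detected in all 12 libraries, and their summed level ranged from 10220 to 36220 CPM in Sham and from 4949 to 70030 CPM in DHCA. It stood at 70030 CPM in DHCA 3, 36220 in Sham 2, 30160 in Sham 5, 27320 in DHCA 2 and 27180 in Sham 1, and at or below 15310 in the other 7. Those 5 libraries held the 5 highest values of GFRA1 and of NGFR and the 5 lowest of NTRK2. In bulk tissue, fewer cells of a type and less RNA per cell cannot be told apart.

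This relation was looked for after the values were seen. Over the 12 libraries, log2 GFRA1 and the log2 marker sum had r = 0.95 and rho = 0.94 (permutation p = 1e-05, the smallest that 100000 permutations can give, and 5e-05; adjusted over 90 relations of members with marker lists 9e-04 and 0.0027). With DHCA 3 and DHCA 5 left out, the libraries farthest from the median sum, r was 0.90, and it was 0.96 without Sham 4, 0.90 within Sham and 0.97 within DHCA. NGFR had r = 0.76 and rho = 0.79 (permutation p = 0.00423 and 0.00344, adjusted 0.0381 and 0.0282), and r was 0.78 without the same libraries, 0.75 within Sham and 0.77 within DHCA. For NTRK2, r was -0.74 and rho -0.76 (permutation p = 0.00533 and 0.00677, adjusted 0.0436 and 0.0508), with -0.67 without those libraries, -0.64 within Sham and -0.89 within DHCA. All CPM values of a library share its total, of which these markers make up a part.

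The same relation was fitted across all genes with the group in the model. For each doubling of the oligodendrocyte sum GFRA1 rose by 0.57 on the log2 scale (edgeR adjusted p = 0.000648) and NGFR by 0.95 (adjusted p = 0.0432). This slope was called for 395 of 14004 genes (2.82%), the markers themselves included, and for 2 of the 6 members. NTRK2 had a slope of -0.15 (edgeR adjusted p = 0.405), NTRK3 -0.12, RET -0.15 and GDNF 0.013. With this term in the fit, the DHCA minus Sham difference was 0.069 for GFRA1 (edgeR adjusted p = 0.900), -0.076 for NGFR (0.971) and 0.068 for NTRK2 (0.889).

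Of the 90 relations, 10 had both adjusted values under 0.05: 5 of GFRA1, 3 of NGFR, 2 of NTRK2 and none of NTRK3, GDNF or RET. A list of 12 genes for oligodendrocyte precursors, the dividing cells that give rise to oligodendrocytes, summed to between 1064 CPM in DHCA 5 and 2881 CPM in DHCA 3. This sum had r = 0.93 with GFRA1, 0.85 with NGFR and -0.86 with NTRK2 (permutation p = 3e-05, 0.00087 and 0.00036, adjusted over 90 relations 0.00135, 0.0131 and 0.00648). Spearman's rho was 0.92, 0.88 and -0.86 (permutation p = 6e-05, 0.00038 and 0.0007, adjusted 0.0027, 0.00684 and 0.00866). Without the 2 libraries farthest from the median, DHCA 3 and Sham 1, r was 0.91, 0.78 and -0.78. Within Sham r was 0.95, 0.83 and -0.79, and within DHCA 0.99, 0.88 and -0.94. The list holds genes that mature oligodendrocytes also express, and these had wide ranges, with BCAS1 at 104 to 935 CPM and SOX10 at 42.9 to 438.5 CPM. PDGFRA, the receptor gene that defines precursors, ranged from 109.3 CPM in Sham 1 to 137.5 CPM in Sham 3, and the precursor genes PCDH15 and LHFPL3 were also lowest in Sham 1. CSPG4, another precursor gene, was lowest in Sham 2. The relations above are thus those of the summed list and not of each precursor marker.

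The astrocyte marker sum, from 6838 to 9745 CPM, ran opposite to GFRA1 (r = -0.81, rho = -0.87, permutation p = 0.00118 and 0.0006, adjusted 0.0152 and 0.00866). Its r was -0.79 without DHCA 3 and DHCA 4, -0.61 within Sham and -0.88 within DHCA. With NGFR it had r = -0.64 and rho = -0.72 (permutation p = 0.0215 and 0.0110, adjusted 0.119 and 0.060), and r = -0.68 without the same libraries. With NTRK2, which astrocytes express mainly in its truncated form, it had r = 0.62 and rho = 0.82 (permutation p = 0.0306 and 0.00194, adjusted 0.145 and 0.0194), and r = 0.54 without them.

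A neural progenitor list had r = -0.80 and rho = -0.80 with GFRA1 (permutation p = 0.00179 and 0.00268, adjusted 0.0179 and 0.0241), and r = -0.70 without DHCA 3 and Sham 3. A Schwann cell list, which includes NGFR itself, summed to between 57.5 CPM in DHCA 5 and 471.5 CPM in Sham 1. SOX10, which is on the precursor list too, was 42.9 and 438.5 CPM of these. NGFR was taken out of the sum for all relations with this list. With NTRK2 the sum without NGFR had r = -0.90 and rho = -0.85 (permutation p = 6e-05 and 0.00077, adjusted 0.0018 and 0.00866), and r = -0.77 without Sham 1 and Sham 5. With GFRA1 it had r = 0.81 and rho = 0.89 (permutation p = 0.00139 and 0.00029, adjusted 0.0156 and 0.00652), and r = 0.93 without them. With NGFR it had r = 0.86 and rho = 0.89 (permutation p = 0.00028 and 0.00027, adjusted 0.0063 and 0.0065), and r = 0.84 without them.

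**Figure D5:**
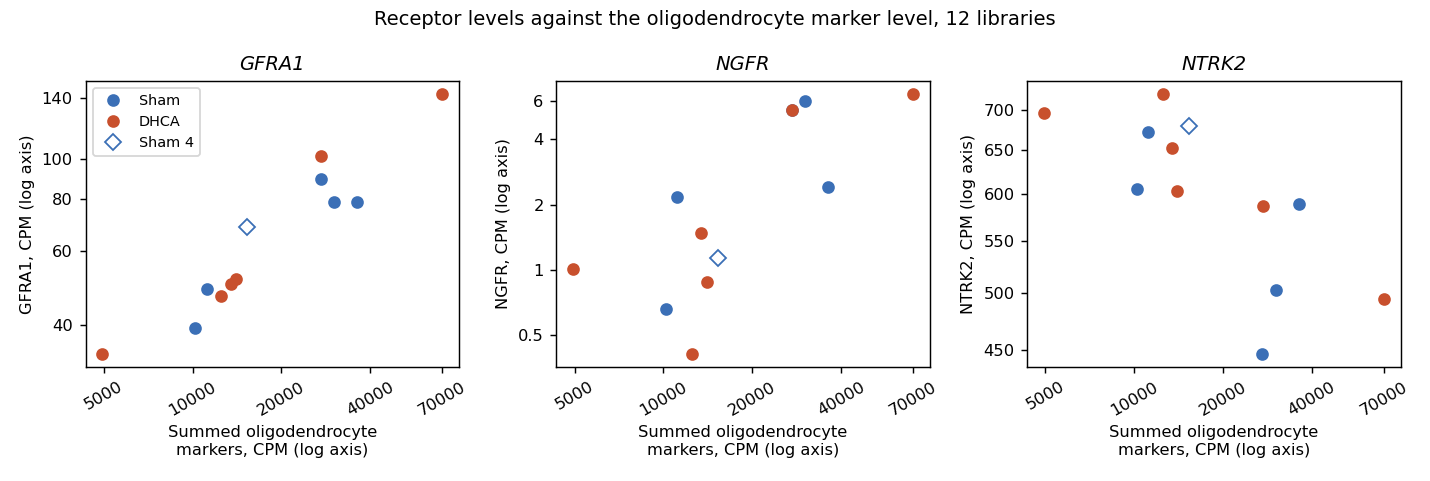
Each point is 1 library, with the summed CPM of 10 oligodendrocyte markers on the x axis and the CPM of GFRA1, NGFR or NTRK2 on the y axis, both on log axes; in the NGFR panel the point of DHCA 2 covers that of Sham 1. The libraries with sums of 27180 CPM or more have the 5 highest GFRA1 and NGFR and the 5 lowest NTRK2 values, and they come from both groups.

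Genes whose ranks over the 12 libraries were most like those of a member were named as a description, from 11027 genes with a symbol and a mean of at least 5 CPM. For GFRA1 these were SNX30, ANGPTL2 and MCAM, each at rho = 0.99, and MCAM itself ranged from 52.4 to 474 CPM. For NGFR they were CLN8 (rho = 0.94), FKBP9 and SLC48A1 (0.93 each), and for RET TOMM40, MFSD10 and MAGEF1 (0.98 each). For NTRK2 they included NOL4 and ABI3BP (0.95 each). For NTRK3 they were MED20 (0.95), EFNA3 (0.93) and PTPN3 (0.92), and for GDNF FLYWCH2 (0.93), FBXO15 (0.89) and FAM120A (0.87). The libraries share depth and tissue makeup in these values.

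The remaining ligands and receptors of the family were mostly low, and 3 of 11 could be tested, none of which passed the edgeR test. NTF4, the other TrkB ligand, stood at 15.5 CPM in Sham 1, at 0.426 CPM in Sham 4 and between 1.58 and 4.47 CPM in the remaining Sham libraries, against 0.448 to 3.80 CPM in DHCA. Its log2 fold change was -0.72 (SE 0.67, edgeR adjusted p = 0.822), 0.083 without Sham 1 and -0.99 without Sham 4. GFRA2, the co-receptor of neurturin, ranged from 5.43 to 9.44 CPM in Sham (median 8.44) and from 4.30 to 9.69 CPM in DHCA (median 7.20; log2 fold change -0.20, SE 0.22, edgeR adjusted p = 0.830). It was -0.20 without Sham 4, -0.11 without DHCA 3 and -0.32 without DHCA 6. NRTN, the neurturin gene, had 26 counts over all Sham and 23 over all DHCA libraries. ARTN, the artemin gene, had 4 and 2, GFRA4, the persephin co-receptor gene, 17 and 26, and the persephin gene PSPN none. GFRA3, as named in the authors' table, had 50 and 61 counts, while the reference table gives that name to another gene ID.

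Around the receptors, genes that process the ligands and relay their signal were counted from lists chosen by function. Of 18 tested co-receptors and partners, 0 passed the edgeR test over all genes (0.186% called), with a median log2 fold change of 0.034. SORCS3, a sortilin-type receptor gene, had 0.53 (SE 0.24, edgeR adjusted p = 0.618), MAGED1 0.26, LRIG1 -0.33 and NGRN -0.27. Without Sham 4 these were 0.39, 0.26, -0.27 and -0.37, and NGRN was -0.100 without Sham 1. Of 39 docking and relay genes 0 passed (median 0.013). IRS2, an insulin receptor substrate gene, had 0.82 (SE 0.26) and PLCG1, the phospholipase that binds activated Trk kinases, -0.43 (SE 0.18), with edgeR adjusted p of 0.354 and 0.559, DOK1 had -0.66 and IRS1 -0.45. Without Sham 4 the 4 values were 0.80, -0.43, -0.81 and -0.32, and DOK1 was -0.39 without Sham 1.

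In the list of proneurotrophin processing and release, the edgeR test called 1 of 10 tested genes higher and 0 lower. Over all genes, 0.136% were called higher and 0.05% lower. The median log2 fold change of the list was -0.034, with 5 genes positive and 5 negative. PLAT encodes tissue plasminogen activator, which starts the plasmin cascade that can cleave the BDNF precursor outside cells. It rose from 46.5 ± 13.0 to 134 ± 42.1 CPM (SD, n = 6 each; log2 fold change 1.53, SE 0.24, edgeR adjusted p = 0.023). The call was lost without Sham 3, Sham 4, Sham 5, DHCA 2, DHCA 3 or DHCA 4, with edgeR adjusted p between 0.0638 and 0.0765 and log2 fold changes of 1.39 to 1.54. CADPS2, a gene of dense-core vesicle release, had -2.11 (edgeR adjusted p = 0.354), with 68.8 CPM in Sham 4, and -0.65 without that library. SCG2 had 0.50 and FURIN, a protease that cleaves proneurotrophins inside cells, -0.32. SCG2 was 0.53 without Sham 4, 0.30 without Sham 1 and 0.26 without DHCA 5, and FURIN -0.31 without Sham 4 and -0.062 without Sham 1.

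Of 22 tested genes known to be induced by BDNF signalling, the edgeR test called 1 higher and 0 lower. Over all genes, 0.136% were called higher and 0.05% lower. The median log2 fold change of the list was 0.17, with 14 genes positive and 8 negative. The transcription factor gene NPAS4, which neuronal activity switches on, had a Sham mean of 1.44 ± 0.936 CPM and a DHCA mean of 37.3 ± 57.4 CPM (SD, n = 6 each; log2 fold change 4.87, SE 1.34, edgeR adjusted p = 0.235). The DESeq2 Wald test called it, with an adjusted p of 0.00964. Its log2 fold change was 3.75 without DHCA 2 and 4.70 without Sham 4. ARC, a synaptic activity gene, had -1.22 (SE 0.37, adjusted p = 0.327) and DUSP6, a phosphatase that ends MAP kinase signalling, 0.87 (SE 0.37, adjusted p = 0.579). Without Sham 4 these were -1.27 and 0.89.

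Of 22 tested transcription factors known to bind BDNF promoters, 0 passed, with a median of -0.027. CREM, a cyclic AMP response factor gene, had a Sham mean of 9.10 ± 2.57 CPM and a DHCA mean of 15.8 ± 2.20 CPM (SD, n = 6 each; log2 fold change 0.79, SE 0.20, edgeR adjusted p = 0.186), and the DESeq2 Wald test called it (adjusted p = 0.0107). BHLHE40, a repressor gene, had 0.80 (SE 0.26, edgeR adjusted p = 0.384) and ATF4, the stress response factor gene, 0.30 (SE 0.15, adjusted p = 0.686). Without Sham 4 the log2 fold changes of CREM, BHLHE40 and ATF4 were 0.89, 0.69 and 0.26.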

How the data were processed

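RNA from 12 libraries, 6 Sham and 6 DHCA, was analysed from a table of raw counts per gene that the authors made with featureCounts 1.5.1 on the Sscrofa11.1 annotation, with no strand option set, per the file headers. No aligner is named in those sources. Of the 18 library columns of that table, 6 matched no sample of the labels and were not used. The authors also deposited a comparison table with a mean signal, log2 fold changes with standard errors, a test score and p-values, made with DESeq2 per the submitters' processing notes.

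From the counts, edgeR 4.0.16 (R 4.3.3) was run with filterByExpr, TMM factors and the robust quasi-likelihood test on 14004 genes, with Benjamini-Hochberg adjustment and an adjusted p of 0.05 as the threshold. Intervals of fold changes cover 95% and come from the fitted standard error. CPM used TMM factors, and TPM used the exon length in the count table. BDNF and NTF3, which did not pass the filter, were compared by an exact permutation test of mean CPM over all 924 splits. A count of 0 allows 3 counts, and such limits and the Poisson and binomial intervals cover counting error only. The scripts were tested on simulated counts. Of the gene IDs, 17449 had a symbol.

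The alternatives were DESeq2 1.42.0, limma 3.58.1 with voom, other scaling factors and filters, a replicate block, and fits without 1 or several libraries. The genes named are all 8 members and the remaining ligands and receptors, the called genes and the 4 smallest p-values of each pathway list, and the 3 genes most like each tested member, and a few of these are not reported here. The rule that chose the members names genes and uses no values, but the members and lists were chosen with earlier results of these data known. Each library is 1 piglet, so p-values measure the spread between animals.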

Additional observations from a re-analysis of the deposited data

Results flagged for a closer look

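In groups of 6 libraries, a value was singled out when its gap to the nearest other value took up more of the group's range than Dixon's 95% critical value allows. For normally distributed values chance does this in about 1 of 20 groups. That rate does not hold for counts near 0, where a group with counts in 1 library only is always singled out. Of 38 groups, 9 had such a value, a number that cannot be set against that rate. The PSPN groups are included in the 38 but held no counts, so the rule could not be applied to them.

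BDNF stood at 16.8 CPM in Sham 4, where the next Sham library held 0.404 CPM, and at 0.412 CPM (2 counts) in DHCA 6, where the next held 0.136 CPM. NTF3 stood at 1.85 CPM in Sham 4 and at 0.412 CPM (2 counts) in DHCA 6, with 0 in the others of each group. NTF4 stood at 15.5 CPM in the shallow library Sham 1, where the next held 4.47 CPM. ARTN stood at 0.776 CPM in Sham 1 and at 0.269 CPM in DHCA 4, each from 2 counts. GDF15, a distant relative of the GDNF ligands, stood at 2.71 CPM in Sham 1 and at 0.618 CPM in DHCA 6.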

How the results depend on the processing

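None of the 8 members passed a threshold of 0.05 on the adjusted p, or on the exact permutation p of BDNF and NTF3, under any alternative run. Without 1 library at a time the log2 fold change ranged from -0.25 to 0.23 for GFRA1, -0.43 to 0.38 for NGFR, -0.020 to 0.13 for NTRK3, -0.24 to 0.045 for RET, 0.033 to 0.15 for NTRK2 and -0.37 to -0.14 for GDNF, and the mean difference from -3.41 to -0.060 CPM for BDNF and -0.31 to 0.069 CPM for NTF3. The sign turned with limma-voom for GFRA1 (-0.028), NGFR (-0.075) and RET (0.011, and 0.088 with sample quality weights), with DESeq2 for NGFR (-0.081), with the oligodendrocyte term, added after seeing the data, for NGFR (-0.076), and with upper-quartile factors for NTRK3 (-0.015). It turned without Sham 1 and Sham 5 for NTRK2 (-0.025), NTRK3 (-0.066), RET (0.12) and NTF4 (0.10), and without Sham 1, Sham 4 and Sham 5 for RET (0.12), NTF3 (0.068 CPM), FURIN (0.14) and IRS1 (0.064). FURIN had 0.047 with quality weights, and NTF4 ranged from -0.99 to 0.083 without 1 library. The 26 genes called became 179 with DESeq2, 207 with quality weights, 12 without Sham 1 and Sham 5, 1 without Sham 1, Sham 4 and Sham 5, 6 at a threshold of 0.01, and 9 (without DHCA 2) to 51 (without Sham 2) without 1 library. The 2 calls in the pathway lists became 9 with DESeq2, 12 with quality weights, 0 in both fits without several libraries and at 0.01, and 0 to 3 without 1 library. Same-numbered Sham and DHCA libraries had correlations of -0.40 to 0.36, 2 of 6 above 0.1, and 0 of 6 pairs matched best. The numbers were not used as pairs in the main fit, but these correlations cannot exclude a pairing. With the replicate block 8 genes were called, 0 of them in the lists, GFRA1 had -0.052 and NGFR -0.27. The cause of these shifts was not tested. BDNF, NTF3 and most other ligands lay near the limit set by depth, with 1.502 counts per CPM in the shallowest library.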
